A study of Mus musculus with 8 samples.

Results

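In livers under tunicamycin stress, 3130 genes carried at least 1 N6-methyladenosine (m6A) peak in the list called from METTL14-knockout RNA and no peak in the list called from wild-type RNA. They were chosen by gene name: every peak of the knockout list whose gene name does not occur in the wild-type list was taken. This gave 5921 of 12290 knockout peaks (48.2%) and 3130 of the 5861 genes with a knockout peak (53.4%). The other 2731 genes with knockout peaks also had a wild-type peak, and 257 genes had wild-type peaks alone. Because the 2 peak lists chose the genes, the presence of peaks in the knockout and their absence in the wild type is the selection itself and no finding, and the peak values below are descriptions without a test.

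The samples were livers of mice labelled METTL14Alb (here KO, a liver knockout of Mettl14) and of mice labelled METTL14f/f (here WT, carrying the floxed gene). Both genotypes were given tunicamycin, a drug that stresses the endoplasmic reticulum (ER) by blocking N-linked glycosylation, by intraperitoneal injection (2 mg/kg) 24 hours earlier, so every value is from stressed liver. Polyadenylated RNA was sequenced as input and as the fraction bound by an antibody to m6A, with 2 libraries in each of the 4 groups. The files held 1 peak list per genotype and 1 comparison of the input libraries, so peaks have no replicate values, and p-values measure only the spread between libraries that the labels do not tie to separate mice. The label METTL14Alb names albumin, a gene of hepatocytes; cells of other types in these livers are not stated to lack Mettl14, and no source used here gives the age of the mice.

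m6A is the most abundant internal modification of mRNA. A complex of METTL3, the catalytic subunit, and METTL14, which holds the RNA, writes it during transcription, mostly in the sequence GGACT and its relatives and often near stop codons. YTH proteins read it and can speed mRNA decay or alter translation, and FTO and ALKBH5 remove it. A peak in m6A immunoprecipitation marks a stretch of RNA enriched by the antibody over input, and the antibody also binds the related m6Am, which sits beside the cap where a transcript begins with A.

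Mettl14 itself was at 64.6 and 62.0 normalised input counts in KO, and at 79.8 and 99.7 in WT. The KO libraries were lower, but the authors' deposited table gave a log2 change of -0.50 (SE 0.41, adjusted p = 0.342), so the count of the whole gene did not separate the genotypes beyond the test. The labels do not say which stretch of the gene is deleted, and reads from the rest of it would count here, so this gene is a weak check of the labels. Mettl14 had 0 peaks in either list.

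The letters of a peak could be read only where it lay at an annotated transcription start, since a table of start regions (RefSeq, GRCm38.p6, the coordinates of mm10) was the only sequence used. Of the 5921 peaks, 124 (2.09%) began at such a start within 1 base, against 5.57% of the knockout peaks in genes that also had a wild-type peak. Shown first are the members whose first 30 transcribed bases hold GGACT, the core of the METTL3-METTL14 target sequence, with those 5 letters in capitals, and then 2 members with large changes of input RNA that lack it there.
Mug1: gagaGGACTcataaataagccggctgtaga
Epha2: gggttctcacccaacttccattaaGGACTt
Pex7: cccggccttcctGGACTttcagtgagccgc
Dph5: ctctgatgggcacatggtttggGGACTgca
Myl9: gaagcaccgcaacagcgccgaGGACTtttc
Dusp1: agtgaaGGACTggcgggaggaaagcgcggt
Aadat: gcagattgggtggcactacacagggacagc
Pygb: gcagcatcccagcgctagagtcttctctgc
These stretches are printed 5′ to 3′ on the strand of the gene. Mug1, a plasma protease inhibitor of the alpha-macroglobulin family, starts at chr6:121838541-121838570 on the plus strand, and its peak had an enrichment score of 53.6. Epha2, a receptor tyrosine kinase for ephrins, starts at chr4:141301221-141301250 on the plus strand, with a score of 80.2. Dusp1, a phosphatase that switches off MAP kinases, starts at chr17:26508443-26508472 on the minus strand, with a score of 9.30. Pex7, the import receptor for a class of peroxisomal enzymes, starts at chr10:19907645-19907674 on the minus strand, with a score of 47.5.

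Over the first 50 transcribed bases, GGACT occurred in 9 of the 124 starts (7.26%), beside 5.54% of 13637 starts of tested genes, and its reverse complement AGTCC occurred in 6 (4.84%), beside 5.30%. The first base was A in 33 of the 124 (26.6%), beside 30.0% of all starts of tested genes and 35.2% of starts under knockout peaks in genes with a wild-type peak. A match describes these letters only, and the bases beyond the first 50 were not read.

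The members' peaks were narrower and had higher enrichment scores than the other knockout peaks. The enrichment score, a value of the authors' peak lists taken as the ratio of antibody-enriched to input signal, had a median of 16.8 over the 5921 peaks, with the middle 50% between 9.37 and 31.0 and extremes of 1.22 and 944. The 6369 knockout peaks in genes with a wild-type peak had a median of 9.90, and the 5586 wild-type peaks a median of 24.2. Summed over its blocks, a member peak covered a median of 99 bases, against 148 for the other knockout peaks and 49 for wild-type peaks; the shortest length, 49 bases, was that of 2236 member peaks (37.8%). The authors' p per peak was weaker in the members, with a median of 1.05e-07 against 2.21e-12 for the other knockout peaks. Most member peaks, 4488 (75.8%), lay in 1 block, and the most broken held 6 blocks, which are separate stretches of genome within 1 peak.

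**Figure D1:**
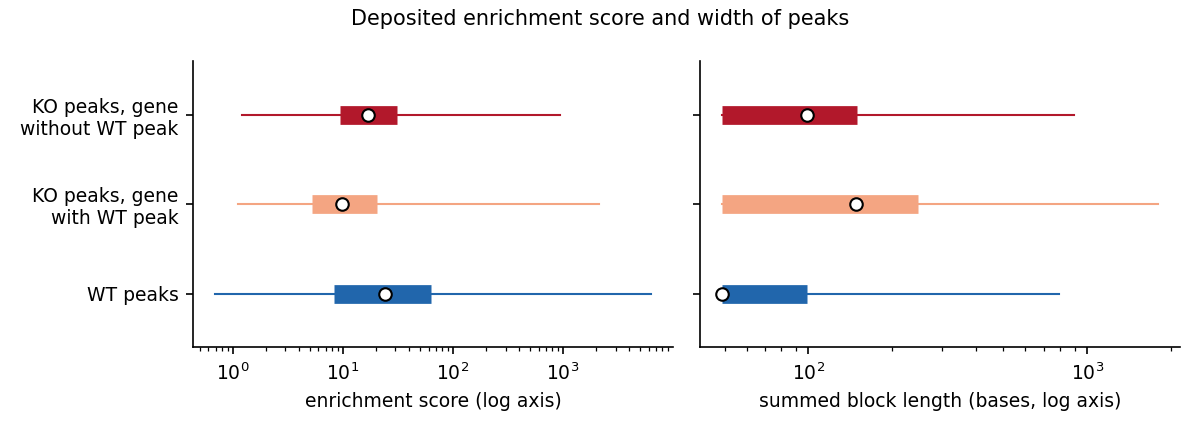
Enrichment score (left, log axis) and summed block length in bases (right, log axis) of the deposited peaks, in 3 sets. Thin lines run from the lowest to the highest peak, thick bars cover the middle 50% and circles mark the median: member peaks sit at a median of 16.8 and 99 bases, the other knockout peaks at 9.90 and 148 bases.

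Abundance of the mRNA moved with the enrichment score, and within bins of equal abundance the order of the sets stayed. Among genes with a mean KO input count of 200 to 400, member peaks had a median score of 20.6 and the other knockout peaks 15.2. At 400 to 800 the medians were 16.7 and 12.4, and above 3200 they were 6.78 and 5.84. In all 7 bins of count the member median was the higher of the pair, with the smallest gap, 8.83 against 8.19, at 1600 to 3200; below 100 the other set held only 13 peaks. Member widths had a median of 98 or 99 bases in every bin, and the other knockout peaks 143 to 149. The median length of the members' genes was also greater, 27080 bases of genome against 16380 for the other genes with knockout peaks.

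The highest scores belonged to genes of varied function. Dip2c, a member of the disco-interacting protein family, had the top score of all members, 944, at chr13:9276675-9276773, which lies 217 bases from the annotated 5′ start of its gene. D15Ertd621e followed with 875 at chr15:58415468-58415517, and Ash2l, a core subunit of the complexes that methylate histone H3 at lysine 4, with 599 at chr8:25840384-25840607. Tmem64 reached 410 with a peak 99 bases from its start, and Dynlt3, a dynein light chain, reached 408 over 4 blocks. Tln2, a talin that links integrins to actin, scored 360, Cxadr, the cell adhesion receptor that coxsackieviruses and adenoviruses use, scored 304, and Ntn4, a netrin of basement membranes, scored 276. These scores fall far outside the middle 50% of members, and 168 member peaks in all scored 100 or more. The scores of Dip2c, D15Ertd621e, Tln2 and Ntn4 were whole numbers. So were those of 242 member peaks (4.09%), 1.29% of the other knockout peaks and 3.85% of wild-type peaks. Input reads under single peaks are not given, so whether such scores rest on few reads was not tested. Whether a peak lay in an exon, an intron or a UTR was not determined, since exon annotation was not used here.

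Input RNA of these high scorers was not uniformly changed. Dip2c had 965 and 797 normalised counts in KO and 226 and 264 in WT, and rose in the authors' deposited table by a log2 change of 1.85 (SE 0.23, adjusted p = 4.75e-14). Cxadr had 2482 and 2927 against 610 and 664, with a log2 change of 2.09 (SE 0.20, adjusted p = 1.09e-24) in the authors' deposited table. Both sets of libraries stand well apart in these genes. D15Ertd621e, by contrast, had 893 and 991 counts in KO and 930 and 1080 in WT, so the libraries overlapped, and the authors' deposited table gave a log2 change of -0.09 (SE 0.20, adjusted p = 0.753). Dynlt3 had 484 and 489 in KO against 528 and 467 in WT, again overlapping. Ntn4 was scarce, with 42.2 and 45.0 against 75.5 and 29.6, so its score of 276 rests on few input reads.

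Most members held few peaks. A single peak was found in 1609 genes, 2 peaks in 826 and 3 or more in 695, of which 140 had at least 5; the mean was 1.89 per gene, against 2.33 in genes with peaks in both lists. There were 16 members with 8 or more peaks. Nsd1, a methyltransferase for histone H3 lysine 36, had 14 peaks, which lay in 3 stretches of chr13: the first 4 began between 55213260 and 55214059, the next 5 lay between 55245766 and 55247962, and the last 5 between 55312234 and 55313931. Their scores ran from 5.58 to 151. Nipbl, the loader of cohesin onto chromatin, had 10 peaks with scores of 19.1 to 68.6. The genes with 9 peaks were Zmiz1, a coactivator of androgen receptor and SMAD signalling, Aff1, a scaffold of the super elongation complex, Sh3pxd2a, the podosome scaffold TKS5, and Elmsan1, a partner of histone deacetylases. Eppk1, the cytoskeletal linker epiplakin, and Stt3b, a catalytic subunit of the oligosaccharyltransferase that performs the glycosylation step tunicamycin starves of substrate, were the most abundant of 10 genes with 8.

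Of these 8 genes, the counts of Nipbl were nearly equal in all libraries, at 768 and 775 in KO and 762 and 725 in WT, while Eppk1 had 6822 and 11679 in KO and 1597 and 1775 in WT. Nsd1 lay between, with 1975 and 2247 against 1415 and 1461. In the authors' deposited table the log2 changes were 0.05 for Nipbl (SE 0.20, adjusted p = 0.865), 2.46 for Eppk1 (SE 0.24, adjusted p = 4.12e-23) and 0.55 for Nsd1 (SE 0.19, adjusted p = 0.00963). Stt3b had 4100 and 4379 counts in KO and 3305 and 3804 in WT, and did not pass the test in the authors' deposited table (log2 change 0.25, SE 0.18, adjusted p = 0.262).

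The widest member peaks had lengths of 899 bases in Myo9b, 894 in Sema6d, 892 in Itga5 and 844 in a peak named Adgra2. Myo9b is an unconventional myosin, Sema6d a transmembrane semaphorin, and Itga5 the alpha chain of the fibronectin receptor. The wide peaks of Myo9b at chr8:71359763-71360662 and of Itga5 at chr15:103344336-103345228 were centred 500 and 496 bases from the annotated 3′ end of their genes. Adgra2 could not be placed, because the peak list puts it on chromosome 5 and RefSeq puts the gene of that symbol on chromosome 8.

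A smaller share of member peaks lay near gene ends. Of 5903 placed peaks, 14.8% were centred within 1000 bases of genome from the 3′ end of the gene, 18.1% within 1000 bases of its 5′ start only, and 67.1% elsewhere. The other knockout peaks gave 19.7%, 19.6% and 60.8%, and wild-type peaks gave 21.6%, 25.9% and 52.5%. These distances run over introns, and the members' longer genes put more of their sequence away from the ends, so the shares are not corrected for gene length.

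Peaks were called in more genes in KO than in WT at the same input count, and the members are drawn from that gap. At 100 to 200 normalised counts, 25.7% of genes had a knockout peak and 4.95% a wild-type peak, each by the count of its own genotype. The shares were 51.3% and 17.0% at 200 to 400, 74.9% and 32.8% at 400 to 800, and 87.5% and 54.3% at 800 to 1600. At 3200 to 6400 they were 93.8% and 74.1%. Among 1043 genes that were at 200 to 400 counts in both genotypes, 407 were members, 133 had peaks in both lists, 28 had wild-type peaks alone and 475 had none. These counts use the lists that chose the members and carry no test. No source used here gives the reads of the antibody-enriched libraries, so the depth of the 2 peak lists, which would move these shares, was not tested.

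**Figure D2:**
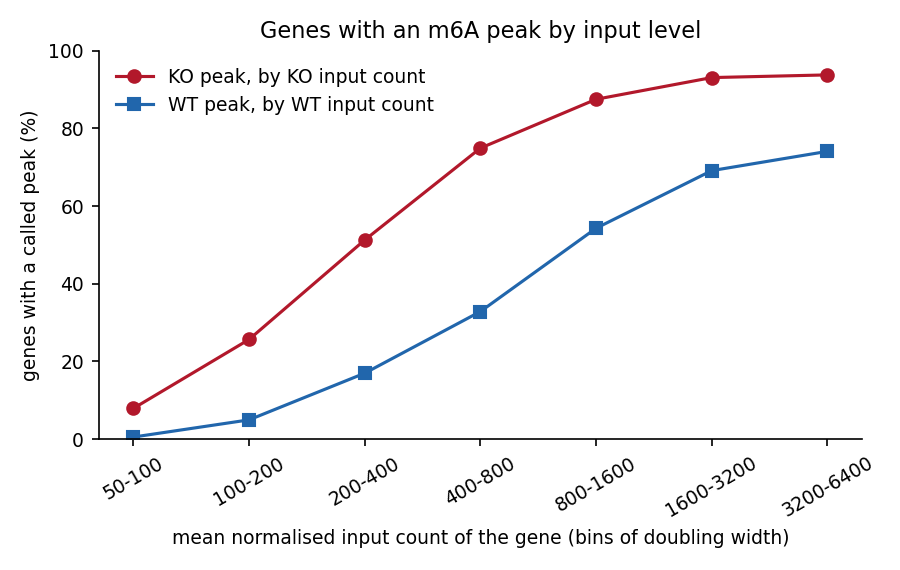
Share of genes with a called m6A peak (y axis, percent) in bins of mean normalised input count (x axis), with knockout peaks by KO count in red and wild-type peaks by WT count in blue. The knockout share is above the wild-type share in each bin, 51.3% against 17.0% at 200 to 400 counts. An equal normalised count stands for more input reads in KO than in WT.

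The members covered a wide range of WT input counts. Their WT input count had a median of 371, against 1124 in genes with peaks in both lists. Of 3123 members with counts per library, 1084 (34.7%) had a WT count at or above 539, the lower quartile of genes with wild-type peaks, and 455 (14.6%) were at or above 1055, the median of those genes. Below 55.2, the lowest WT count of any gene with a wild-type peak among those with recovered counts, lay 106 members. Why members at any of these counts had no wild-type peak was not tested.

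The deposited comparison of input RNA does not name its numerator. It was read as KO over WT without use of the members: of genes with a wild-type peak, those lacking a knockout peak made up 19.5% (49 of 251) where the log2 change was -2 or lower, 6.79% (91 of 1340) between -1 and 0, 2.83% (3 of 106) between 1 and 2 and 0 of 17 above 2, with a slight reversal between -1 and 1, where 7.52% lacked it on the positive side. A gene with less KO RNA has fewer reads from which a knockout peak can be called.

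All 3130 members were tested in that comparison, and both rises and falls were common among them. By the authors' deposited table (DESeq2, Benjamini-Hochberg), 928 members were higher in KO at an adjusted p under 0.05 (29.6%; 20.4% of all 14257 tested genes were called higher), 614 were lower (19.6%; 22.2% of all) and 1588 were not called; 42.5% of all tested genes were called. The share of rises stood above that of all genes and the share of falls below it, but more RNA in KO makes a knockout peak easier to call and so enters the choice of members, and nothing is read from these shares. At 2-fold or more, 576 members were higher (18.4% of members, beside 14.9% of all tested genes that were called so) and 244 lower (7.80%, beside 12.6%), again from the authors' deposited table. Its median log2 change was 0.12 over the members, 0.05 over all tested genes and -0.51 over genes with peaks in both lists, of which 293 were higher and 1383 lower.

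Counts per library were also compared between the genotypes. Both KO libraries lay above both WT libraries in 1452 of 3123 members and below them in 1088, and the libraries overlapped in 583. Over all 14068 genes with such counts 76.9% did not overlap, 40.2% with KO higher and 36.7% with KO lower. Parted libraries were thus common over all genes, and nothing is read from them about the members. These values use the authors' size factors. With counts scaled to equal library totals instead, limma called 2316 members higher and 130 lower, where 66.2% of all genes were called, 58.7% higher and 7.56% lower, because that scaling moves the median log2 change of all genes from 0.07 to 0.87, a shift of 0.80. A change below about that size is thus a change relative to the median gene, and falls in particular depend on the scaling.

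**Figure D3:**
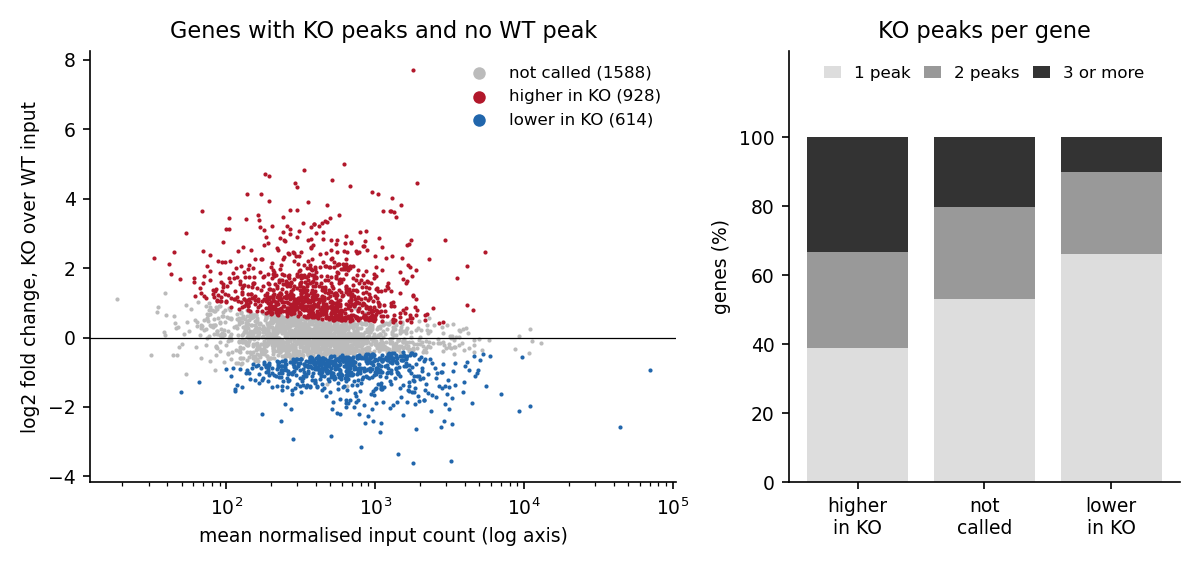
Left: log2 fold change of input RNA, KO over WT (y axis), against mean normalised count (x axis, log scale) for the 3130 members, in the authors' deposited table, with 928 called higher in red, 614 called lower in blue and 1588 not called in grey. Right: percent of genes with 1, 2 or 3 or more knockout peaks within each of these 3 groups; 33.4%, 20.3% and 10.1% had 3 or more in the higher, not called and lower groups.

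Peak number differed between the called groups of members. The 928 genes called higher held 2118 peaks, 2.28 per gene, and 33.4% of them had 3 or more. The 614 genes called lower held 923 peaks, 1.503 per gene, and 10.1% had 3 or more, while the 1588 not called lay between at 1.81 per gene and 20.3%. Median KO counts were 540.0, 430 and 375 in the higher, lower and not called genes, and median WT counts 213, 866 and 372. The high WT counts of the lower genes go with their call, and no member has a wild-type peak by the rule, so neither is a finding. The enrichment score had a median of 16.9 in the lower genes, against 14.8 in the higher genes and 18.3 in those not called.

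The steepest rises are given for members other than predicted genes and RIKEN clones, with a mean count of at least 100. Ly6d, a GPI-anchored surface protein of the Ly6 family, had 4006 and 3170 counts in KO and 16.2 and 18.9 in WT, a log2 change of 7.69 (SE 0.34, adjusted p = 3.21e-112) in the authors' deposited table. It carried 1 knockout peak with a score of 58.0. Ddr1, a receptor tyrosine kinase for collagen, had 1250 and 1151 against 43.1 and 31.0, a log2 change of 5.003 (SE 0.28, adjusted p = 4.87e-67) in the authors' deposited table. Src, the founding cytoplasmic tyrosine kinase, had 606 and 537 against 37.7 and 17.5. All 3 had WT counts below 50. At 50 to 100 WT counts 0.520% of genes had a wild-type peak. These 3 genes lack one by the rule that chose the members, so nothing is read from its absence.

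The other rises among the 8 largest so chosen were Sox4, Phlda3, Dhrs13, Sh3bp4 and Pygb. Sox4, a transcription factor of fetal and progenitor cells, had 456 and 246 counts in KO and 22.6 and 4.04 in WT, and its wide spread gave an SE of 1.06 on a log2 change of 4.70 in the authors' deposited table. Phlda3, a p53 target that restrains AKT, had 371 and 376 in KO and 14.02 and 16.2 in WT. Pygb, the brain form of glycogen phosphorylase, had 1299 and 1289 in KO and 55.0 and 71.4 in WT, and 1 of its 3 peaks began at the start printed above, chr2:150786796-150786825. Dhrs13, a short-chain dehydrogenase, had 898 and 1058 against 52.8 and 31.0, and Sh3bp4, a regulator of receptor endocytosis, had 620 and 478 against 17.3 and 33.7. In all 8 of these genes the KO libraries lay more than 10-fold above the WT libraries on average, and 7 of the 8 adjusted p-values of the authors' deposited table lay between 3.21e-112 (Ly6d) and 3.93e-29 (Phlda3), with Sox4 at 5.47e-05.

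**Figure D4:**
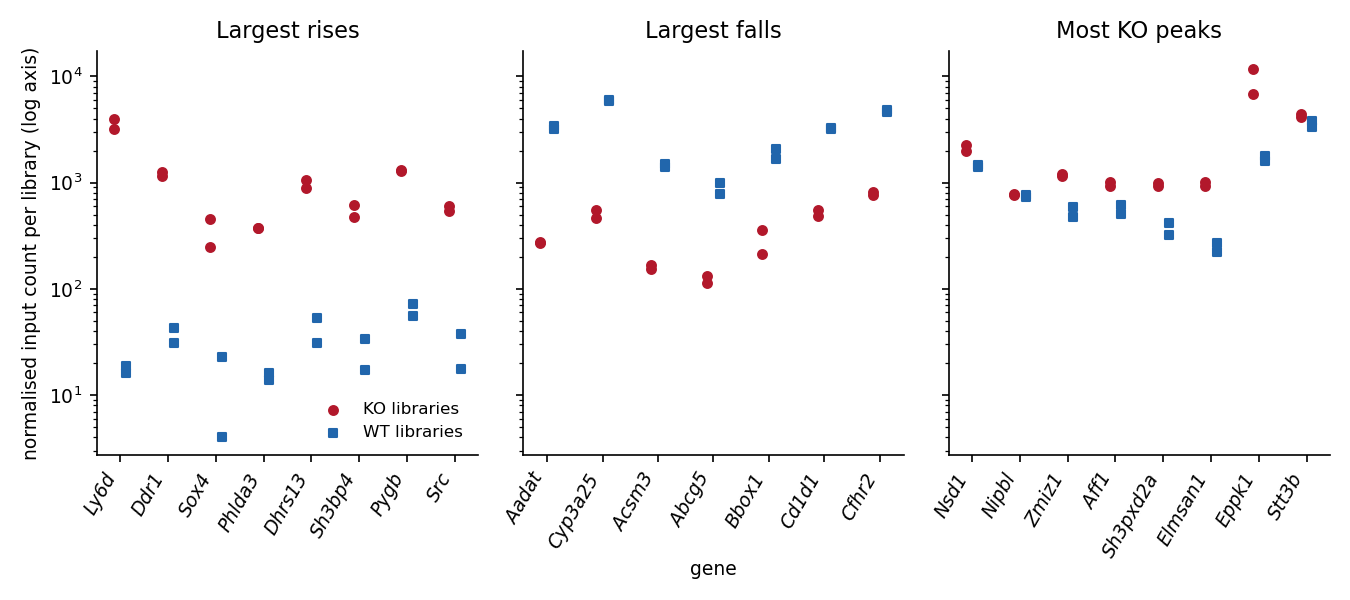
Normalised input counts per library (y axis, log scale) of 3 sets of members, predicted genes and RIKEN clones left out: the 8 largest rises, 7 of the 8 largest falls and 8 genes with the most knockout peaks, of which the last 2 are the most abundant of 10 with 8 peaks. Each point is a library, KO in red circles and WT in blue squares; in the first panel KO lies above WT for each gene (Ly6d 4006 and 3170 against 16.2 and 18.9), in the second below it.

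The steepest falls, chosen in the same way, were of several kinds of gene. Aadat, a mitochondrial aminotransferase of lysine and kynurenine breakdown, had 275 and 269 counts in KO and 3425 and 3194 in WT, a log2 change of -3.61 (SE 0.19, adjusted p = 9.28e-77) in the authors' deposited table. Its peak, with a score of 58.5, began at the start printed above, chr8:60506124-60506153. Cyp3a25, a cytochrome P450 of drug and steroid oxidation, had 461 and 557 against 5905 and 5973, and Acsm3, a medium-chain acyl-CoA synthetase, had 167 and 155 against 1387 and 1492. Abcg5, a sterol exporter into bile, had 133 and 114 against 995 and 774. Bbox1, which makes carnitine, had 212 and 356 against 1672 and 2081, and Cd1d1, which presents lipids to NKT cells, had 489 and 552 against 3281 and 3163. Cfhr2, a plasma protein of the complement system, was at 766 and 818 against 4631 and 4847.

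In these 7 genes no KO library reached a WT library, and the WT counts lay between 774 and 5973. Of genes with 800 to 6400 WT counts, 54.3% to 74.1% had a wild-type peak. These 7 genes lack one by the rule that chose the members, so nothing is read from its absence. All 7 kept a negative log2 change with counts scaled to equal totals. Cfhr2 and Cyp3a25 have close paralogs whose reads the counting could split, so their counts are uncertain to that extent.

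Steady input RNA was found in 766 members, which were not called and had a log2 change under 0.25 in size in the authors' deposited table. Those given here are the most abundant of them with counts per library. Lamp1, a major lysosomal membrane protein, had 8833 and 10035 counts in KO and 9063 and 9194 in WT, with 5 knockout peaks of up to 66.6. Ddb1, the adaptor of CUL4 ubiquitin ligases and a sensor of DNA damage, had 4939 and 4948 in KO and 4972 and 5204 in WT, with scores of 32.5 and 19.5. Ssr1, a subunit of the translocon-associated complex of the ER, had 4174 and 4354 against 4177 and 5758, with a score of 48.6. Cyp4a14, a fatty acid hydroxylase, varied within the genotypes, at 4339 and 6954 in KO and 6823 and 5115 in WT. Rpl41, a ribosomal protein with many genomic copies, had 4397 and 4547 against 4976 and 4486.

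For the most abundant members counts per library could not be recovered. By mean count, which is not divided by gene length, these included Lars2 (70112), Apoa2 (43991), Gnb2l1 (12921), Mug1 (11063) and Fn1 (11058) in the authors' deposited table. Apoa2, an apolipoprotein of high-density lipoprotein, fell by 2.58 on the log2 scale (SE 0.22, adjusted p = 3.16e-30) in the authors' deposited table. Mug1 fell by 1.97 there (SE 0.26, adjusted p = 6.4e-13 in the authors' deposited table). Fn1, the matrix protein fibronectin, had 6 knockout peaks with scores of 2.897 to 4.62 and a log2 change of 0.24 (SE 0.26, adjusted p = 0.489) in the authors' deposited table. Gnb2l1, the ribosomal scaffold RACK1, had a log2 change of -0.17 and was not called in the authors' deposited table. The scores of several of these abundant genes were low, 6.20 at most in Apoa2, Gnb2l1 and Fn1, while Lars2 had 9.90 and Mug1 53.6.

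Members were spread over stress, growth and structural pathways. Each list below is read by counts in the authors' deposited table, beside 22.0% of all tested genes that were members. Within all 3130 members, 29.6% were higher and 19.6% lower, with a median log2 change of 0.12. The 22.0% takes in 8139 genes with no peak, whose mean counts had a median of 62.4. Among genes at 200 to 400 counts in both genotypes, 407 of 1043 were members, and at 400 to 800 counts 433 of 985. The lists were not matched for input count, so a share above or below 22.0% is not read as a trait of a list. Under equal totals the medians shift up by about the 0.80 given above; where that turns a list's direction, it is said. The lists were chosen with results of these data known.

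**Figure D5:**
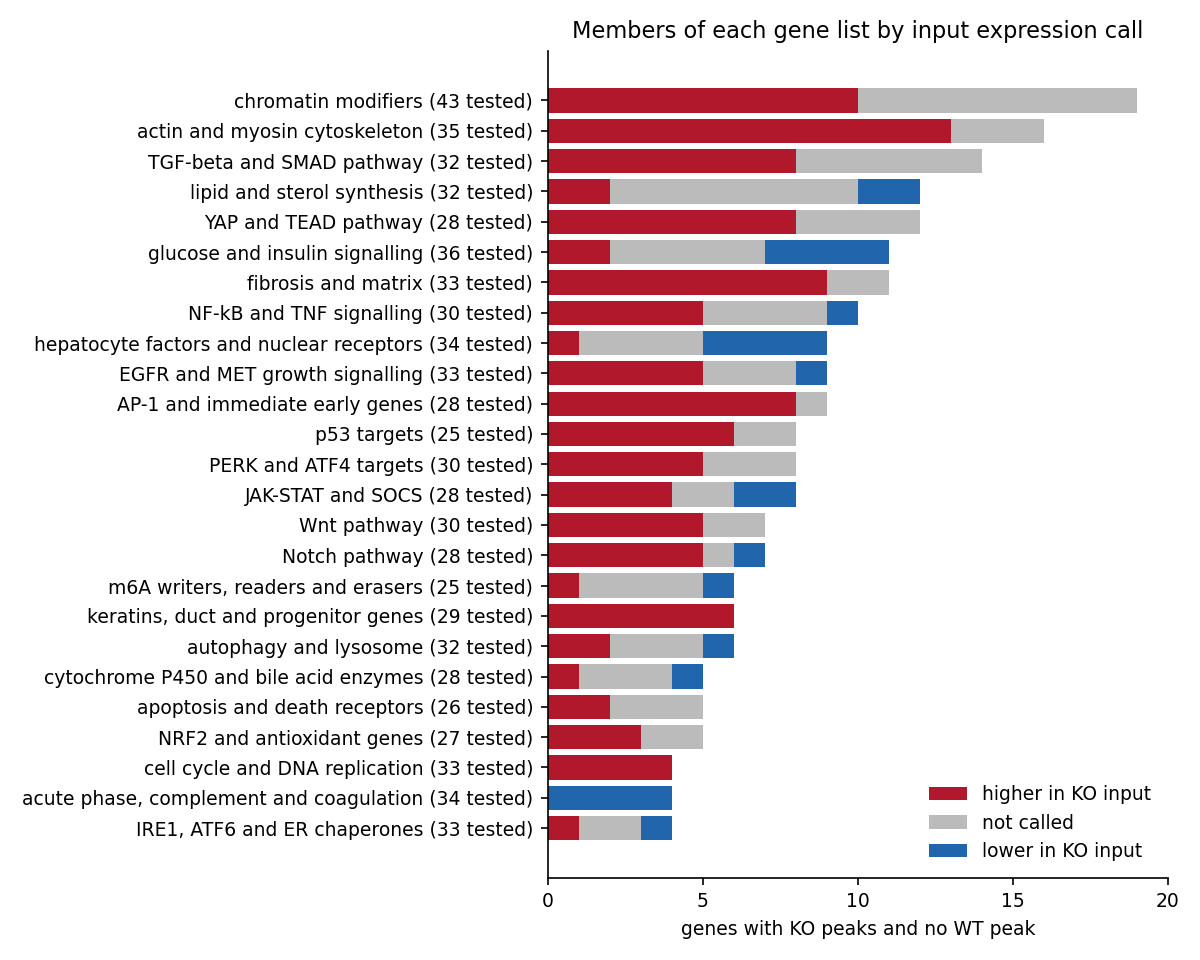
Number of members in each gene list (x axis) by call in the authors' deposited table: higher in KO input in red, not called in grey, lower in blue; the number of tested genes of the list is in brackets. The actin and myosin cytoskeleton list has 13 higher and 0 lower among 16 members, and acute phase, complement and coagulation has 4 lower among 4.

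In the unfolded protein response, the signalling that ER stress sets off, the members included sensors of ER stress and targets of ATF4. The PERK and ATF4 list had 8 members of 30 tested genes, of which 5 were higher and 0 lower (median log2 change 0.85). Ppp1r15a, the phosphatase subunit GADD34 that reverses eIF2 phosphorylation, had 1307 and 1360 counts in KO and 321 and 543 in WT. Slc7a5, the large neutral amino acid transporter, had 300 and 230 against 59.3 and 86.2, and Atf3, a stress-induced repressor, had 1764 and 3293 against 47.4 and 413. Gdf15, a stress hormone, had 564 and 648 against 189 and 346. The list of IRE1, ATF6 and chaperones had 4 members of 33, with 1 higher and 1 lower. Ern1, which encodes IRE1 and had 4 knockout peaks, rose, at 916 and 1076 against 345 and 572 (log2 change 1.12, SE 0.26, adjusted p = 7.49e-05 in the authors' deposited table). Eif2ak3, which encodes PERK and had 5 peaks, had 740 and 687 against 515 and 687 and did not pass. Atf6b fell, with 521 and 543 against 915 and 1069, relative to the median gene; at equal totals its change did not pass.

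Members among cell stress and early response genes rose where they were called, while the full lists also held called falls. Over all tested genes, 18 p53 targets were higher and 2 lower, and 18 AP-1 and immediate early genes higher and 2 lower. Of apoptosis and death receptor genes 9 were higher and 4 lower. Of 25 tested p53 targets 8 were members, 6 higher and 0 lower (median 0.86). Plk2, a p53-induced kinase, had 283 and 322 counts in KO and 28.0 and 29.6 in WT, Aen, a p53-induced exonuclease, had 1179 and 1396 against 350 and 384, and Trp53 itself had 406 and 297 against 189 and 229. Fas, the death receptor, overlapped at 116 and 119 against 112 and 139. Of 28 AP-1 and immediate early genes 9 were members, 8 higher and 0 lower (median 1.38), among them Klf6 with 1175 and 1330 against 205 and 246, Dusp6 with 387 and 573 against 148 and 222, and Egr1 with 237 and 645 against 108 and 57.9. Of 26 genes of apoptosis and death receptors 5 were members and 2 were higher; Tnfrsf12a, the receptor of TWEAK, had 1898 and 2079 counts in KO and 105 and 121 in WT (log2 change 4.14, SE 0.22, adjusted p = 1.05e-73 in the authors' deposited table). Of its 2 knockout peaks, the stronger, with a score of 17.4, lay at its annotated start, chr17:23677420-23677449.

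Growth factor pathways contributed ligands, receptors and intracellular parts. Of 33 EGFR and MET genes 9 were members, 5 higher and 1 lower (median 0.98). The ligand Hbegf had 66.9 and 84.1 counts in KO and 14.02 and 13.5 in WT, and the ligand Tgfa had 478 and 571 against 193 and 236. Grb2, the adaptor that carries receptor signals to RAS, was the lower member, at 500 and 505 against 772 and 827, relative to the median gene. Of 32 TGF-beta and SMAD genes 14 (43.8%) were members, 8 higher and 0 lower (median 0.88). The ligand Tgfb1 had 202 and 165 against 72.2 and 124, the receptor Tgfbr2 had 902 and 863 against 315 and 233, and the repressors Ski and Skil had 817 and 701 against 243 and 267, and 306 and 330 against 101.3 and 135. Smad4, the shared partner of the signalling SMADs, had 399 and 366 against 322 and 346 and did not pass. Acvr1b, an activin receptor with a knockout score of 219, had 128 and 143 against 188 and 214 and did not pass either.

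Among genes of the Hippo pathway and its effectors YAP and TEAD, 12 of 28 (42.9%) were members, 8 higher and 0 lower (median 0.80). The targets Cyr61 and Ctgf, secreted matrix-associated proteins, had 392 and 344 counts in KO against 57.1 and 21.5 in WT, and 975 and 857 against 444 and 253. The DNA-binding partner Tead1 had 722 and 741 against 196 and 127, and the inhibitory kinase Lats1 had 771 and 734 against 438 and 424. Wwtr1, the YAP relative TAZ, was steady at 334 and 324 against 281 and 321. Notch genes gave 7 members of 28, 5 higher and 1 lower (median 0.94): the receptor Notch1, with 5 knockout peaks, had 934 and 1143 against 275 and 260, the ligand Jag1 had 157 and 131 against 31.3 and 31.0, the target Hes1 had 163 and 167 against 98.1 and 47.1, and Numb, an inhibitor, had 325 and 337 against 465 and 520. Wnt genes gave 7 members of 30, 5 higher and 0 lower (median 0.67); Apc, of the beta-catenin destruction complex, had 7 peaks and 950 and 820 counts against 538 and 611.

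Inflammatory signalling was mixed. Of 30 NF-kB and TNF genes 10 were members, 5 higher and 1 lower (median 0.50). The subunits Nfkb1 and Rela had 557 and 450 counts in KO against 311 and 321 in WT, and 1176 and 1174 against 632 and 791. Chuk, an IkB kinase, fell, at 647 and 765 against 1335 and 1502 (log2 change -1.01, SE 0.20, adjusted p = 5.56e-06 in the authors' deposited table), and did not pass at equal totals. JAK-STAT and SOCS genes gave 8 members of 28, 4 higher and 2 lower (median 0.56): the kinase Jak2 had 312 and 281 against 88.4 and 143, the cytokine receptor chain Osmr had 143 and 134 against 70.1 and 80.8, and the lower ones included the interleukin 6 receptor Il6ra, at 199 and 246 against 711 and 465. At equal totals 0 of these 8 were called lower by limma.

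Every matrix and cytoskeletal member of the next 2 lists that was called rose. Of 33 genes of fibrosis and matrix 11 were members, 9 higher and 0 lower, with a median log2 change of 2.02, and all 8 collagen genes that were members, of 30 tested, were higher (median 2.20). Col1a2, a chain of fibrillar collagen type I, had 1249 and 941 counts in KO and 187 and 145 in WT, and Col4a1, of basement membranes, had 5639 and 4708 against 783 and 695. Hspg2, the proteoglycan perlecan, had 1173 and 817 against 276 and 213. In the list of the actin and myosin cytoskeleton and its regulators 16 of 35 (45.7%) were members, 13 higher and 0 lower (median 1.15). Iqgap1, a scaffold of CDC42 and RAC, had 1027 and 852 against 178 and 163, Flna, which crosslinks actin, had 2809 and 2198 against 588 and 444, and Rhoc, a small GTPase, had 418 and 336 against 65.8 and 64.6. Rhoa was an exception, at 1595 and 1619 against 2167 and 1852, and was not called. Related families behaved alike in their counts: 6 of 7 members among 24 semaphorins and plexins were higher, and 5 of 8 among 31 ADAM and ADAMTS proteases, with 0 lower in each.

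Cells other than hepatocytes share many of these genes. The called markers of cholangiocytes and stellate cells were all higher, while those of the other types were mixed or rarely called. Of 10 cholangiocyte markers 9 were higher and 0 lower in the authors' deposited table, and their summed counts were 4964 and 3896 in KO and 831 and 1029 in WT; 2 were members, and both were higher, among them Sox9 with 186 and 161 against 59.3 and 47.1. Of 10 stellate cell markers 6 were higher and 0 lower, with sums of 10530 and 7575 against 4089 and 3251; 5 were members, of which Col1a2, Col3a1 and Pdgfrb were higher and Lrat and Dcn not called. Macrophage markers, of which 2 were higher and 2 lower, summed to 6944 and 6121 against 5805 and 5344, and endothelial markers, of which 0 were higher and 1 lower, to 4037 and 3542 against 4095 and 2959. The sums of lymphocyte markers were 204 and 188 against 173 and 187, and those of neutrophil markers 258 and 174 against 145 and 337. None of the recovered markers of these 6 lists was at 0 in all 4 libraries.

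Of 10 hepatocyte markers 9 were lower and 1 higher in the authors' deposited table and 0 were members: 9 had peaks in both lists and 1 had none. Hnf4a, the only marker of this list with counts per library, had 4182 and 4857 in KO and 12900 and 11670 in WT. In whole liver, more cells of a type and more RNA per cell cannot be told apart, and the part of these cells in the rises of matrix, duct and cytoskeletal members was not tested.

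Chromatin regulators gave 19 members of 43 (44.2%), 10 higher and 0 lower, with a median log2 change of 0.55. Arid1a, a subunit of SWI/SNF remodellers with 5 peaks, had 1315 and 1321 counts in KO and 492 and 500 in WT, and Setd1a, a methyltransferase for histone H3 lysine 4, had 749 and 761 against 340 and 341. Crebbp, a histone acetyltransferase, had 8 peaks and 600 and 533 counts against 330 and 284. Tet3, which oxidises 5-methylcytosine, had 646 and 758 against 301 and 400, and Dnmt3a, which methylates DNA, had 928 and 926 against 553 and 403. Kmt2c and Setd2 were steady, at 614 and 608 against 540 and 617, and at 681 and 683 against 568 and 587. Of 34 lysine methyltransferases and demethylases named Kmt, Kdm or Setd, 12 were members with 6 higher. Of 44 deubiquitinases 16 were members, with 5 higher and 11 not called. Of 333 zinc finger genes of the Zfp group 38 (11.4%) were members, 11 higher and 1 lower, and 281 had no peak in either list.

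The cell cycle list had 4 members of 33, and all were higher. Ccnd1 had 677 and 400 counts in KO against 105 and 90.2 in WT, and Ccnd2 had 258 and 178 against 105 and 86.2. Mcm6 had 273 and 223 against 34.5 and 10.8, and Cdk4 had 799 and 630 against 488 and 477. Ccnd1 and Ccnd2 encode D-type cyclins, Cdk4 their kinase partner and Mcm6 a subunit of the replicative helicase. Of the other 29 tested genes of that list, 27 had no peak in either list.

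Lists of liver functions held both rises and falls. Of 34 acute phase, complement and coagulation genes 4 were members, and all were lower, with a median log2 change of -1.90. F9, coagulation factor IX, had 492 and 582.1 counts in KO and 2422 and 2631 in WT, and C9, of the membrane attack complex, had 697 and 866 against 3447 and 2404. The 1 knockout peak of F9 had a score of 77.7. At equal totals F9 and C9 stayed lower, while F11, coagulation factor XI, at 174 and 267 against 477 and 299, was near 0 at a log2 change of 0.011. Most genes of this list, 19, had peaks in both lists.

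Among ABC transporters 14 of 43 were members, 1 higher and 7 lower, with a median log2 change of -0.55 that turned to 0.27 at equal totals, where 6 were higher and 3 lower. Abcb11, the bile salt export pump, had 1012 and 1417 counts in KO against 2322 and 3219 in WT and did not pass at equal totals. Among cytochrome P450 genes 14 of 84 were members, 1 higher and 7 lower (median -0.98, and -0.11 at equal totals with 6 higher and 6 lower). The higher one was Cyp2b10, a target of the receptor CAR, with 1452 and 3298 against 195 and 186 (log2 change 3.64, SE 0.31, adjusted p = 2.29e-30 in the authors' deposited table). Its 1 knockout peak had a score of 8.41.

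Hepatocyte transcription factors and nuclear receptors gave 9 members of 34, 1 higher and 4 lower (median -0.34, turning to 0.51 at equal totals, where 4 were higher and 0 lower). Onecut2, with 7 peaks and a score of up to 140.0, had 687 and 676 counts in KO and 1064 and 1158 in WT. The clock repressors Nr1d1 and Nr1d2 had 508 and 653 against 745 and 1212, and 664 and 710 against 1113 and 1048. Rora was the higher member, at 1460 and 1731 against 979 and 1265. Lipid and sterol synthesis gave 12 members of 32, 2 higher and 2 lower (median 0.20). Fasn, fatty acid synthase, had 1201 and 1113 against 536 and 968, and Sqle, of cholesterol synthesis, had 1215 and 1313 against 260 and 602. The phosphatidate phosphatase Lpin1 had 846 and 894 against 3335 and 1573. At equal totals limma called 8 of these 12 members higher and 0 lower, so the fall of Lpin1 did not pass there. Scd1, the stearoyl-CoA desaturase, ranged from 1401 to 6485 within KO and from 2366 to 4565 within WT, a spread that allowed no call.

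Glucose and insulin genes gave 11 members of 36, 2 higher and 4 lower (median -0.24, turning to 0.59 at equal totals, where 5 were higher and 2 lower). Slc2a2, the glucose transporter of hepatocytes, had 352 and 338 counts in KO and 1471 and 1189 in WT (log2 change -1.95, SE 0.21, adjusted p = 2.78e-18 in the authors' deposited table). Akt2, the insulin-responsive kinase, had 962 and 974 against 1801 and 1774, and Pklr, liver pyruvate kinase, had 781 and 807 against 1104 and 1200. Both were lower relative to the median gene. Hk1, a hexokinase scarce in hepatocytes, had 130 and 152 against 49.6 and 47.1. Mtor, with 3 peaks and a score of up to 99, was not called at 1416 and 1500 against 1183 and 1166. In autophagy and lysosome genes 6 of 32 were members. Npc1, the lysosomal cholesterol exporter, had 5743 and 5810 against 3416 and 3267, and Lamp2 had 2769 and 3160 against 5901 and 6939. At equal totals limma called 5 of these 6 members higher and 0 lower, so the fall of Lamp2 did not pass there.

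The m6A machinery itself had 6 members among 25 tested genes, 1 higher and 1 lower (median 0.24). Ythdf2, the cytosolic reader that recruits deadenylation, had 4 knockout peaks of up to 22.4 and 1005 and 1105 counts in KO against 360 and 384 in WT, a log2 change of 1.504 (SE 0.21, adjusted p = 1.68e-11) in the authors' deposited table. Ythdf3, its relative, had 5 peaks of up to 74.7 and 968 and 1047 counts against 792 and 828, and was not called. Hnrnpc, which binds RNA loosened by m6A, had 686 and 721 against 1270 and 1162 and was lower relative to the median gene, but turned to a log2 change of 0.033 at equal totals. Mettl3, the catalytic partner of METTL14, had 1 knockout peak of 9.76 and 186 and 214 counts against 174 and 182. Pcif1, the writer of m6Am at cap-adjacent A, had 2 peaks and overlapping counts of 291 and 342 against 336 and 349, and Rbm15b, an adaptor of the writer complex, had 281 and 269 against 143 and 211; none of these 3 was called in the authors' deposited table.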

How the data were processed

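The authors aligned reads to mm10 with HISAT2 2.1.0 and compared input libraries with DESeq2 1.18.1, per the submitters' processing notes. No source used here names the read counter, annotation or peak caller. The authors deposited 1 comparison of the input libraries, holding a mean signal per gene (counts divided by size factors), log2 fold changes with standard errors, a score (the Wald statistic), p-values and adjusted p-values for 14257 of 16133 genes, per the file headers, and 1 peak list per genotype with an enrichment value per peak, taken as a ratio, and a second value taken as the authors' p-value. Per-library counts were recovered here from the digits of the deposited means, helped by the log2 fold change where several solutions were possible, for 15944 genes (98.8%). Of 9574 genes checked against the deposited fold change the largest gap was 0.00486 on the log2 scale. The recovery was also tested on simulated data. The 181 genes above a mean of 10000 and 8 others were left out of all values per library. The input libraries held an estimated 12314559 to 16819232 counted reads. The letters A and B only tell the libraries of a genotype apart, as the means carry no replicate number.

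Genes were called at a deposited adjusted p under 0.05. The alternative fit was limma 3.58.1 (R 4.3.3) with a trend on log2 of normalised counts plus 1 over 14068 genes, tested on simulated data. Peaks were matched by gene name, placed on RefSeq genes of GRCm38.p6 (3115 of 3130 member genes matched) and overlapped with bedtools 2.31.1. Members, gene lists and tests were chosen with earlier results of these data known. Named, leaving out predicted genes, RIKEN clones and similar symbols, were the 8 members with the highest enrichment, most peaks (ties by mean count), highest mean count, largest rise and largest fall (both at a mean count of at least 100) and highest count among steady genes, the 4 widest peaks and up to 4 members per list by enrichment; further list members, and the genes whose start sequences are shown, were chosen after their values were seen. Printed sequences are RefSeq's. Some members the rule names are not reported here.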

Additional observations from a re-analysis of the deposited data

How the results depend on the processing

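The number of member peaks was 5921; it was 2078 (in 1572 genes) among knockout peaks with a p at or below the list's median, and 3635 among those with an enrichment score at or above its median. The median enrichment score of 16.8 became 23.0 with 1 peak per gene, the highest scoring, and 16.4 where the mean count reached 100. Members higher in KO numbered 928, or 576 at 2-fold or more and 2316 by limma at equal totals, and members lower numbered 614, or 244 and 130. Leaving out 1 library at a time, limma called 0 to 1098 members higher and 0 to 738 lower. The counts of 0 came without KO A and without KO B, where limma called 0 of all 14068 genes; a lone library is assumed to vary like the other genotype's. At an unadjusted p under 0.05 those fits gave 770 members higher and 492 lower without KO A, and 770 higher and 554 lower without KO B, beside the 928 and 614 of DESeq2.

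Of 1539 called members refitted by limma, all kept their sign at the authors' size factors, with a pseudocount of 5 and without each library in turn, while 258 turned at equal totals, where the median log2 change was 0.95 over members and 0.87 over all genes. Of the genes named by rule, 26 turned from a negative to a positive log2 change there. Of these 8 were called in neither fit, and the 18 called in at least 1 were Ash2l (0.50), Cyp39a1 (0.77), Cyp4a14 (0.72), D15Ertd621e (0.73), Ddb1 (0.78), Dynlt3 (0.79), F11 (0.011), Fas (0.73), Gstp1 (0.27), Hnrnpc (0.033), Nr1d2 (0.17), Oit3 (0.75), Onecut2 (0.12), Pcif1 (0.70), Pklr (0.29), Psat1 (0.69), Rpl41 (0.74) and Ssr1 (0.62), as log2 changes. Of the further genes in the text, Grb2 (0.15), Numb (0.25), Nr1d1 (0.098), Rhoa (0.50) and Dcn (0.80) turned likewise. Il13ra1 ranged from -0.59 without WT A to 0.74 without WT B; the cause was not tested in any of these. No paired analysis was possible because the recovered libraries carry no replicate number. Peaks have 1 list per genotype, so their values have no error.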

Other observations

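Of the 5921 member peaks, 4 in 4 genes overlapped a wild-type peak filed under another gene name, and 1 gene was a member through such a peak alone. The peak lists put Adgra2 on chromosome 5 and Adgra3 on chromosome 8, where RefSeq has these symbols on chromosomes 8 and 5. Both are members, and input counts were joined to them by symbol.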
